A study of Mus musculus with 48 samples.

Results

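The 33 genes described here are a set of transcripts that mark microglia, the resident macrophages of the brain. They were chosen by name, and all 33 were found among the 23420 genes of a count table of mouse striatum. The striatum is a forebrain region made up mostly of projection neurons that answer to dopamine. The table holds 16 mice of about 50 days of age: 8 of a congenic line, named in the labels by its segment of 112 kb, and 8 wild-type littermates (C57BL/6J). Each genotype had 4 females and 4 males. As background on this line, the segment comes from DBA/2J, lies on chromosome 11 and is otherwise surrounded by the C57BL/6J genome, so that both groups share that background. No mouse had a treatment named in the labels. Striatal punches of 3 mm from both sides of a brain were pooled per mouse, which puts every cell type of the punch into one RNA sample. Every library went over 3 lanes, whose counts were summed, and n counts mice throughout. Mice are named as in the labels. The gene counts of a mouse came to between 73.1 M and 82.0 M. The markers of striatal projection neurons were high in every mouse, with a sum over 8 genes of 6328 to 8324 CPM.

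Microglia enter the brain early in development, renew themselves there and depend on signalling through the receptor Csf1r. In the healthy brain they carry a homeostatic programme of surface receptors that sense nucleotides, chemokines and lipids released by neurons and other glia. When they meet damage, complement or apoptotic cells, a programme of phagocytic and lysosomal genes linked to activation rises, and part of it depends on the receptor Trem2 and its adaptor Tyrobp. The transcription factor PU.1, often together with Irf8, binds purine-rich elements near many genes of the lineage. The members were grouped by these roles: 12 homeostatic, 12 linked to activation, and 9 others, which cover complement C1q, transcription, signalling and lipid or nucleic acid metabolism.

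Some members carry the letters of PU.1 elements beside their start sites, and the stretches are shown here. Whether they bear on how the members varied across mice was not tested. The RefSeq promoters of the mouse build GRCm38.p6, 250 bases before to 50 bases after a start site, were matched for 25 of the 33 members, with 29 promoters in all. They were searched on both strands for GAGGAAGT, the core letters of a PU.1 site, and for GGAAGTGA, the core letters of a joint PU.1 and IRF site. The motifs overlap, since both hold GGAAGT. Each motif was found in 4 members and in 13.8% of the member promoters, against 3.2% and 3.42% of all 32851 promoters of the same length. The matches lay in 6 members, and 2 of them, Ctss and Pld4, held both motifs. A match is only a run of letters in this window. In the stretches below, given 5′ to 3′ on the strand of the gene, capitals mark the match.
Ctss, chr3:95526774-95526799, plus strand: atgaaagtTCACTTCCTCattgtgga
Pld4, chr12:112760656-112760681, plus strand: agaacaaaGAGGAAGTGAatggaagg
Inpp5d, chr1:87620284-87620307, plus strand: tctataatGAGGAAGTtctgtgca
C1qc, chr4:136893094-136893117, minus strand: cggcagacACTTCCTCattttggc
Laptm5, chr4:130913245-130913268, plus strand: ggcaaggcGGAAGTGAggcaggca
Cd68, chr11:69666144-69666167, minus strand: tagttaagGGAAGTGAggcttttc

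All 33 members were expressed well above the limit of counting, and their joint share of the striatal RNA was small. Values are given as CPM, the usual unit of counts scaled to a common library size, with TMM scaling between mice. The sum over the 33 members ranged from 887 to 1088 CPM per mouse, which is 0.0887% to 0.109% of the counts. The sum had a median of 1008 CPM in congenic mice, with 887 and 1062 CPM at the ends, and a median of 981 CPM in wild-type mice, with 888 and 1088 CPM at the ends. The ranges of the genotypes covered each other almost fully. In bulk RNA, fewer microglia and less RNA per microglial cell cannot be told apart.

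Levels between genes are compared per kilobase of exon. The exon length came from the annotation of NCBIM37 and was also cut down to the exon stretches in use, those with at least 10% of the read density of the densest stretch of the gene. Ctss, a cysteine protease of the lysosome, was highest at 63.5 ± 7.31 CPM per kb of exon in use (SD, n = 16). The chains of complement C1q followed, with C1qa at 54.6 ± 5.91, C1qb at 49.9 ± 4.14 and C1qc at 40.4 ± 3.53 CPM per kb in use (SD, n = 16 each). Ctss and C1qa lay closer to each other than the sum of their SDs, and so did C1qa and C1qb, while C1qc stood apart from C1qb by more. Csf1r, the receptor for the growth factors that keep microglia alive, stood at 33.3 ± 4.50, and Tyrobp, the adaptor that passes on the signal of Trem2, at 28.0 ± 3.54 CPM per kb in use (SD, n = 16 each).

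The lowest member was C3ar1, the receptor for the complement fragment C3a, at 0.667 ± 0.0756 CPM per kb in use (SD, n = 16), with 176 to 269 counts per mouse. Above it came Emr1, the adhesion receptor that macrophages are often stained for, at 2.55 ± 0.269 CPM per kb. Slc2a5, a fructose transporter, stood at 2.79 ± 0.254, Inpp5d, a lipid phosphatase that dampens immune receptor signals, at 3.81 ± 0.377, and Irf8, a transcription factor of the macrophage lineage, at 3.88 ± 0.444 CPM per kb in use (SD, n = 16 each). Emr1 and Slc2a5 lay within 1 SD of each other, as did Inpp5d and Irf8, and C3ar1 was far below all of them. Trem2, a receptor for lipids and apoptotic cells, depended most on the length used: it had 16.6 ± 1.63 CPM per kb in use (SD, n = 16) and 3.70 CPM per kb of all annotated exon, since 1104 of 4946 annotated bases were in use. Irf8 also moved, from 1.56 CPM per annotated kb, and C1qc from 25.2. Olfml3, a secreted extracellular protein, shares its exon bins with an overlapping gene and has only the annotated value, 5.47 CPM per kb.

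The homeostatic receptors lay in the upper and middle part of the order. Selplg was at 21.4 ± 2.52, P2ry12 at 21.0 ± 2.23 and Cx3cr1, the receptor for the neuronal chemokine fractalkine, at 17.6 ± 1.13 CPM per kb in use (SD, n = 16 each). Fcrls was at 15.6 ± 1.60, Tmem119, a membrane protein used as a microglia marker, at 12.6 ± 1.44, Gpr34 at 8.93 ± 1.03, Siglech at 8.78 ± 0.920 and P2ry13 at 8.57 ± 0.844. The last 3 lay within 1 SD of each other. Sall1, the transcription factor that holds microglial identity, was at 5.55 ± 0.399 CPM per kb in use.

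Phagocytic and lysosomal members spread over the same range. Laptm5, a lysosomal membrane protein, stood at 14.6 ± 1.27, Ly86 at 14.1 ± 2.04 and Cd68, a lysosomal glycoprotein, at 10.3 ± 1.15 CPM per kb in use (SD, n = 16 each). Fcer1g, the signalling chain of Fc receptors, was at 11.5 ± 1.26, Mpeg1, a pore-forming protein of phagosomes, at 11.1 ± 0.947, Fcgr3, a receptor for IgG, at 9.53 ± 1.20, Aif1, a calcium-binding protein behind a standard microglia stain, at 9.40 ± 1.16 and Itgam, an integrin chain that binds complement, at 7.42 ± 0.557. Laptm5 and Ly86 lay within 1 SD of each other, and so did each neighbouring pair from Fcer1g down to Aif1. Of the other members, Unc93b1, which escorts Toll-like receptors to endosomes, was at 7.19 ± 0.631, Lpcat2, an acyltransferase that makes platelet-activating factor, at 5.38 ± 0.434 and Pld4, an exonuclease of the endolysosome, at 4.86 ± 0.537 CPM per kb in use.

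The chains of C1q, which assemble into one molecule that tags synapses and debris, kept their proportions closely from mouse to mouse. C1qa took 35.5 ± 1.61%, C1qb 34.0 ± 1.72% and C1qc 30.5 ± 0.911% of the summed C1q counts (SD, n = 16). The genes lie side by side on chromosome 4 of NCBIM37, at 136436044 to 136442102 for C1qb, 136445719 to 136448980 for C1qc and 136451832 to 136454718 for C1qa, all on the minus strand.

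Across mice the members varied a little more than other genes. Their coefficient of variation over the 16 mice was 6.37% for Olfml3 to 14.5% for Ly86, a secreted partner of a Toll-like receptor relative, with a median of 10.6%. The median was 7.73% over the 10715 tested genes in the same CPM range. The medians were 10.4% for the homeostatic, 11.3% for the activation-linked and 9.89% for the other members.

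Most members rose and fell together over the mice. Over all 528 pairs the Pearson r of log2 CPM had a median of 0.39, with 83.7% of pairs positive and 197 pairs, or 37.3%, above 0.5. Between the members and the other tested genes the median r was near 0, at -0.003, with 49.7% of pairs positive and 9.67% above 0.5. These values are descriptions and carry no p, since all genes share the same 16 libraries. After the means of the genotype-by-sex groups were taken out, the median over the member pairs was 0.33. The median r was 0.26 over 66 pairs of homeostatic members, 0.47 over 66 pairs of activation-linked members and 0.59 over 36 pairs of other members. With the group means taken out these medians were 0.33, 0.38 and 0.32, so their order did not hold. Ctss, Trem2 and Mpeg1 had the highest median r with the rest, at 0.57, 0.57 and 0.56.

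Of 12 pairs whose products act together or mark the same cells, 10 passed by Pearson r and 5 by Spearman rho. Passing meant a Benjamini-Hochberg adjusted p under 0.05 in a two-sided permutation test with 100000 resamples. The pairs were chosen with earlier results of these data known, so these p-values are not independent evidence. How many pairs of other genes would pass was not determined. The 5 that passed by both were C1qa with C1qc, C1qb with C1qc and the 3 pairs of P2ry12 with P2ry13, Tyrobp with Fcer1g and Cx3cr1 with Csf1r. On residuals of the genotype-by-sex means, 7 passed by r and 4 by rho. P2ry12 and P2ry13, neighbouring receptors for ADP, had r = 0.82 and rho = 0.89 over 16 mice (permutation p = 5e-05 and 3e-05, adjusted p = 0.00048 and 0.00036). C1qa and C1qc had r = 0.85 and rho = 0.80 (permutation p = 8e-05 and 0.0004, adjusted p = 0.00048 and 0.0024). Tyrobp and Fcer1g, adaptors that both carry activating signals, had r = 0.77 and rho = 0.76 (permutation p = 0.00037 and 0.00099, adjusted p = 0.00111 and 0.00396). Cx3cr1 and Csf1r had r = 0.75 and rho = 0.70 (permutation p = 0.00072 and 0.00357, adjusted p = 0.00173 and 0.0107).

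Trem2 and Tyrobp, partners in one receptor complex, had r = 0.57 and rho = 0.54 over 16 mice (permutation p = 0.0189 and 0.0348, adjusted p = 0.0241 and 0.0521). Without the 2 mice farthest from the median of Trem2, r was 0.48 with a permutation p of 0.0832 (adjusted p = 0.111), and with the residuals of the cortical score r was 0.19 (adjusted permutation p = 0.523). Fcgr3 and Fcer1g, its signalling chain, had r = 0.83 and rho = 0.55 (permutation p = 0.00028 and 0.0298, adjusted p = 0.00111 and 0.0521), and r = 0.48 without the 2 farthest mice (adjusted permutation p = 0.111). Without the farthest mice, 5 of the 12 pairs had an adjusted p under 0.05 by r, the 3 C1q pairs, Tyrobp with Fcer1g at r = 0.64 and P2ry12 with P2ry13 at r = 0.72. By rho, 2 did, C1qa with C1qc and P2ry12 with P2ry13. C1qa with C1qb had r = 0.70 where the farthest mice were taken from C1qa and r = 0.43 where they were taken from C1qb. The pairs that missed the threshold by both r and rho with all mice were P2ry12 with Tmem119 at r = 0.24 and rho = 0.31 (permutation p = 0.367 and 0.235, adjusted p = 0.367 and 0.257), and Ctss with Cd68 at r = 0.40 and rho = 0.29 (permutation p = 0.124 and 0.274, adjusted p = 0.136 and 0.274).

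Within the set, 2 blocks of genes were correlated within themselves and weakly or negatively with each other. They were chosen after their values were seen and are given with no test. P2ry12, P2ry13, Gpr34, a receptor for lysophosphatidylserine, Ly86 and Siglech, a sialic acid-binding lectin, were correlated at r = 0.71 to 0.97 in all 10 pairs. P2ry12 with Gpr34 was the highest pair of the set, with r = 0.97 and rho = 0.96, and r = 0.93 without the 2 farthest mice. Csf1r, Inpp5d, Itgam and Laptm5 were correlated at r = 0.55 to 0.87 in all 6 pairs. Between the blocks r was -0.60 to 0.18 over 20 pairs, with a median of -0.24.

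The contrast is shown per mouse for P2ry12 and Csf1r. P2ry12 was highest in congenic male Sample_4673 at 55.2 CPM, congenic female Sample_4739 at 54.6 and wild-type female Sample_4806 at 52.2, and in the other 13 mice it lay between 39.7 and 46.3 CPM. Csf1r was 103, 114 and 100 CPM in those 3 mice, below its median of 126 CPM. Itgam, also of the Csf1r block, was 30.2, 35.7 and 33.05 CPM in them, against a median of 34.6 CPM. Itgam was thus above its median in Sample_4739. The lowest Csf1r levels, 95.2 and 98.96 CPM in wild-type female Sample_4753 and congenic female Sample_4804, came with P2ry12 at 45.8 and 44.7 CPM, within the range of the other mice. Fcrls, a scavenger receptor-like protein of microglia, followed the P2ry12 block at r = 0.32 to 0.60 and ran against Csf1r, with r = -0.77 and rho = -0.84 (r = -0.70 without the 2 farthest mice). Fcrls also had r = -0.77 and rho = -0.69 with Cd68.

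**Figure D1:**
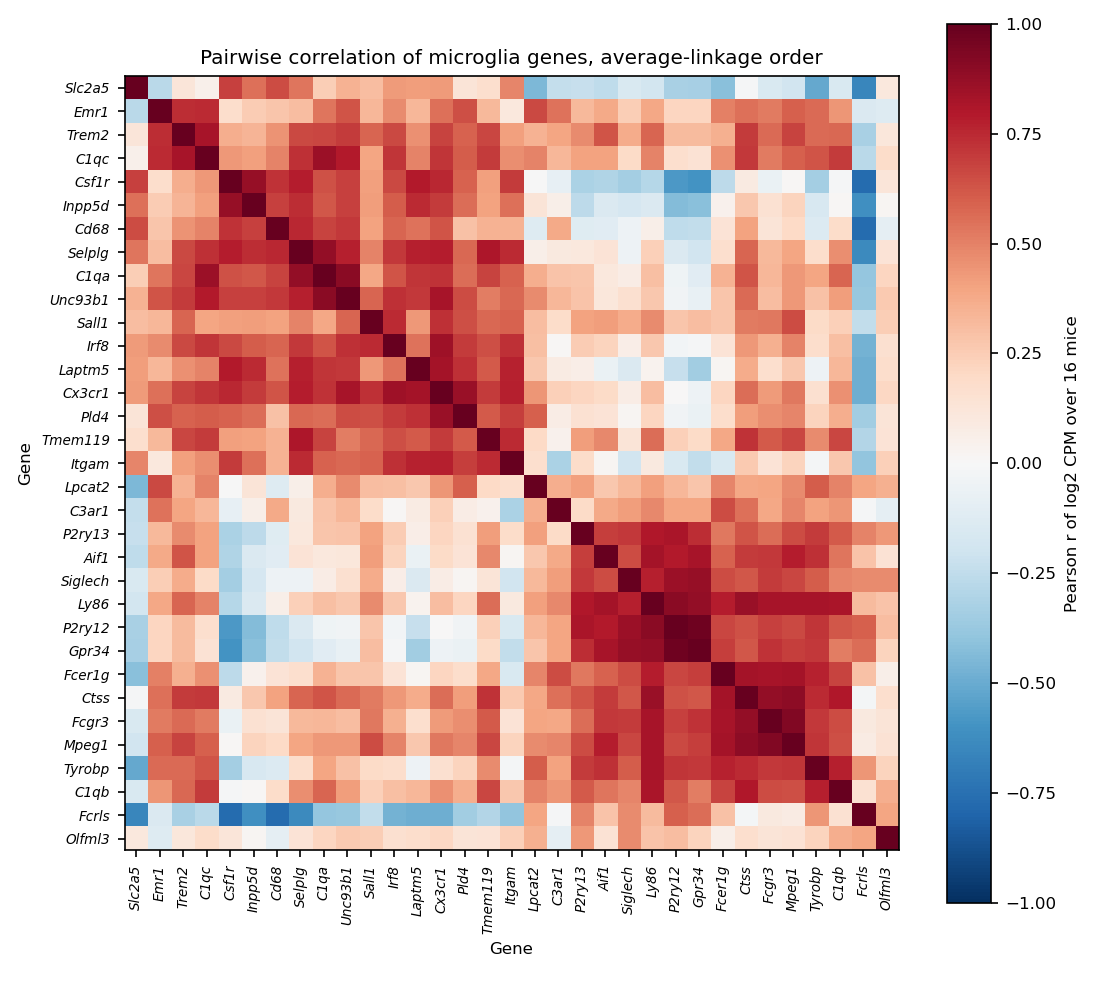
Pearson r between the log2 CPM of each pair of the 33 microglia genes over 16 mice, from -1 (blue) to 1 (red), with genes in the order of average-linkage clustering. Red covers most of the map, P2ry12 with Gpr34 at 0.97 lies in the lower red block, and Csf1r with Fcrls at -0.77 is the deepest blue.

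Members that lie close together on a chromosome were among the correlated pairs, to different degrees. On NCBIM37, P2ry13 and P2ry12 are 5.39 kb apart on chromosome 3 (r = 0.82), within the gene Med12l on the opposite strand. Tmem119 and Selplg, the ligand of P-selectin, are 17.3 kb apart on chromosome 5 (r = 0.81 and rho = 0.63, and r = 0.58 without the 2 farthest mice). Fcgr3 and Fcer1g are 165 kb apart on chromosome 1 (r = 0.83 and rho = 0.55, and r = 0.48 without the 2 farthest mice). C1qb and C1qa, 9.73 kb apart on chromosome 4, had r = 0.58 and rho = 0.39. C1qc, which lies between them, had r = 0.70 with C1qb and 0.85 with C1qa. No source used here gives the strand setting of the counting, so reads of Med12l could add to the counts of both ADP receptors. The same limit holds for Gpr34 and Csf1r, which overlap Cask and Hmgxb3 on the opposite strand. Ctss and Irf8 overlap Hmgb1-ps5 and Gm20388 on the same strand, so their counts are less certain. Only Cd68 of the 33 members lies on chromosome 11, which carries the congenic segment, at 69477715 to 69479655.

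Outside the set, the genes most like the mean standardised profile of the 33 members over the 16 mice were mostly not known as microglia genes. Nacc2, a transcriptional regulator, had r = 0.93, Stx4a, a membrane fusion protein, 0.89, Psd2, 0.89, and Cd14, a receptor for bacterial lipopolysaccharide, 0.89. The next were Fbxo2, Psat1, Vegfb, Epb4.1l2, Fcgr1, Rnf166, 4632428N05Rik, Stard10, Dlgap3, Ccm2 and Capn3, down to r = 0.86. Fcgr1, an Fc receptor of macrophages, had r = 0.87.

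The summed level of the members also moved with the amount of cortical RNA in the punch. The 6 markers of cortical excitatory neurons summed to 30.7 to 235 CPM per mouse. In the 8 mice with the lower cortical sums, 30.7 to 116 CPM, the microglia sum was 1004 to 1088 CPM. In the other 8 mice, with 146 to 235 CPM of cortical markers, it was 887 to 1002 CPM. The microglia sums of these sets of mice did not overlap, though they came as close as 1002 and 1004 CPM. The share of all genes that separate on this split was not determined. The low cortical sums came from 2 of 4 congenic females, 3 of 4 congenic males, 0 of 4 wild-type females and 3 of 4 wild-type males. All 6 cortical markers were lower in congenic than in wild-type mice and in males than in females, with medians of -0.53 and -0.68 on the log2 scale, and 0 of 6 passed the edgeR test in either comparison. With the residuals of the cortical score, the median r over the member pairs was 0.19. The part of cortical tissue in the results below was tested only by fits of the gene counts with the cortical score as a covariate, and not for the exon usage.

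**Figure D2:**
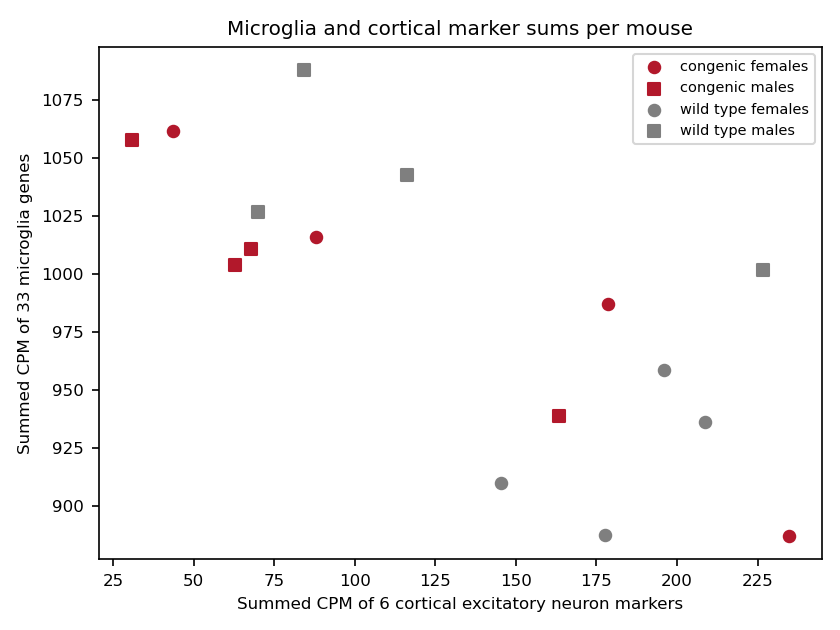
Summed CPM of the 33 microglia genes (vertical axis) against summed CPM of 6 cortical excitatory neuron markers (horizontal axis), 1 point per mouse. The 8 mice with at most 116 CPM of cortical markers have 1004 to 1088 CPM of microglia genes, and the other 8 have 887 to 1002 CPM.

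Markers of blood-borne immune cells were low, with 1 exception. Of 7 monocyte and neutrophil markers, 6 had a row, and they summed to 0.277 to 0.480 CPM in congenic and 0.314 to 0.498 CPM in wild-type mice. Of 7 lymphocyte markers, Cd4 alone was high, at 101 CPM, and the other 6 were at or below 0.230 CPM. The 4 globin rows were listed at 0 in all mice, while Alas2, an enzyme of red cell precursors, was at 1.55 CPM, so these rows do not measure the blood in the punches. The 8 markers of border macrophages, which sit in the meninges and around vessels and share many genes with microglia, summed to 38.3 to 46.5 CPM in congenic and 39.1 to 45.9 CPM in wild-type mice, and Stab1 at 22.1 and Cd163 at 13.9 CPM made up most of it.

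The first comparison asked whether the congenic segment went with a difference in the microglia genes. It did not bring any member past the threshold: edgeR's quasi-likelihood test, with sex in the model, called 0 of 33 members at a Benjamini-Hochberg adjusted p under 0.05, and 0% of all 16716 genes tested. At an unadjusted p under 0.05 there was 1 of 33 members, against 1.53% of all genes. The log2 fold change, congenic over wild type, was positive for 25 of 33 members with a median of 0.04, against 51.1% positive and a median of 0.0015 over all genes. All 33 members had a 95% interval within 0.5 of 0, and 26 within 0.25 of 0. The groups of 8 separated in 0 of 33 members, as in 0% of all genes.

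C3ar1 had the smallest genotype p of the members. It lies on chromosome 6 at 122797156 to 122806179, minus strand, on NCBIM37. Its level was 2.77, 3.10 and 3.65 CPM (lowest, median and highest) in the 8 congenic mice and 2.40, 2.61 and 2.99 CPM in the 8 wild-type mice. Of the congenic mice, 6 of 8 lay above every wild-type mouse, and the other 2, both males, lay within the wild-type range. The log2 fold change was 0.22 (SE 0.08, 95% interval 0.06 to 0.38), with an unadjusted p of 0.00895 and an adjusted p of 0.999 in edgeR's quasi-likelihood test. With the cortical score as a covariate it was 0.18 in edgeR (unadjusted p = 0.0446).

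The other members of small genotype p were also linked to activation or were macrophage receptors. Emr1, on chromosome 17 at 57498109 to 57622952, was at 7.33, 8.38 and 9.76 CPM (lowest, median, highest) in the congenic group and 6.39, 7.90 and 8.93 CPM in the wild-type group. Its log2 fold change was 0.12 (SE 0.07, edgeR p = 0.0996). Trem2, on chromosome 17 at 48485726 to 48493472, was at 16.5, 19.0 and 21.5 CPM in the congenic group and 16.0, 17.4 and 20.3 CPM in the wild-type group, with 0.09 (SE 0.05, edgeR p = 0.1001). The ranges of both genes overlapped over most of their width. Ly86 had 14.8 ± 2.38 against 13.4 ± 1.47 CPM (SD, n = 8 each), which is 0.14 (SE 0.09) on the log2 scale. Aif1 had 7.02 ± 1.03 against 6.42 ± 0.466 CPM and 0.13 (SE 0.08). Tyrobp had 16.5 ± 2.49 against 15.1 ± 1.16 CPM and 0.12 (SE 0.08). Adjusted for the cortical score, these values were 0.07 for Emr1, 0.02 for Trem2, 0.0028 for Ly86, 0.01 for Aif1 and 0.03 for Tyrobp. None of these 5 passed the threshold, with an adjusted p of 0.999 each in edgeR.

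At the other end, the 6 lowest log2 fold changes included all 4 genes of the Csf1r block. That block was chosen from correlations over the same mice, so its shared place is not a separate result. Slc2a5 had 6.77 ± 0.702 CPM in congenic against 7.14 ± 0.540 CPM in wild-type animals and a log2 fold change of -0.08 (SE 0.06). Csf1r had 119 ± 12.8 against 126 ± 20.01 CPM and -0.07 (SE 0.08). Olfml3 had -0.05 (SE 0.05), Laptm5 -0.05 (SE 0.06), Inpp5d -0.04 (SE 0.06) and Itgam -0.04 (SE 0.05). All of these intervals included 0.

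The homeostatic and the activation-linked members had different medians, each close to 0. Of the 12 homeostatic members, 7 were positive, with a median log2 fold change of 0.01 and a range of -0.08 to 0.10. Of the 12 activation-linked members, 10 were positive, with a median of 0.08 and a range of -0.05 to 0.22. Of the 9 others, 8 were positive, with a median of 0.04. As a difference of mean log2 CPM, homeostatic minus activation-linked and centred over the mice, congenic mice stood at -0.18, -0.01 and 0.01 (lowest, median, highest) and wild-type mice at -0.04, 0.03 and 0.10. Congenic male Sample_4673 was the lowest. Wild-type males Sample_4672 and Sample_4734, at -0.04 and -0.01, lay within the congenic range. The other wild-type mice, at 0.03 to 0.10, lay above every congenic mouse. This difference was not tested, since the lists were chosen with results known.

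The positive median of the members did not hold in every fit. With the cortical score as a covariate, 12 of 33 members were positive and the median was -0.02. Without congenic female Sample_4739, which had one of the highest microglia sums, 19 of 33 were positive and the median was 0.01. The spread between mice was wider than these medians: the mean centred log2 CPM of the 33 members was 0.02 ± 0.09 in congenic and -0.02 ± 0.09 in wild-type mice (SD, n = 8 each).

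**Figure D3:**
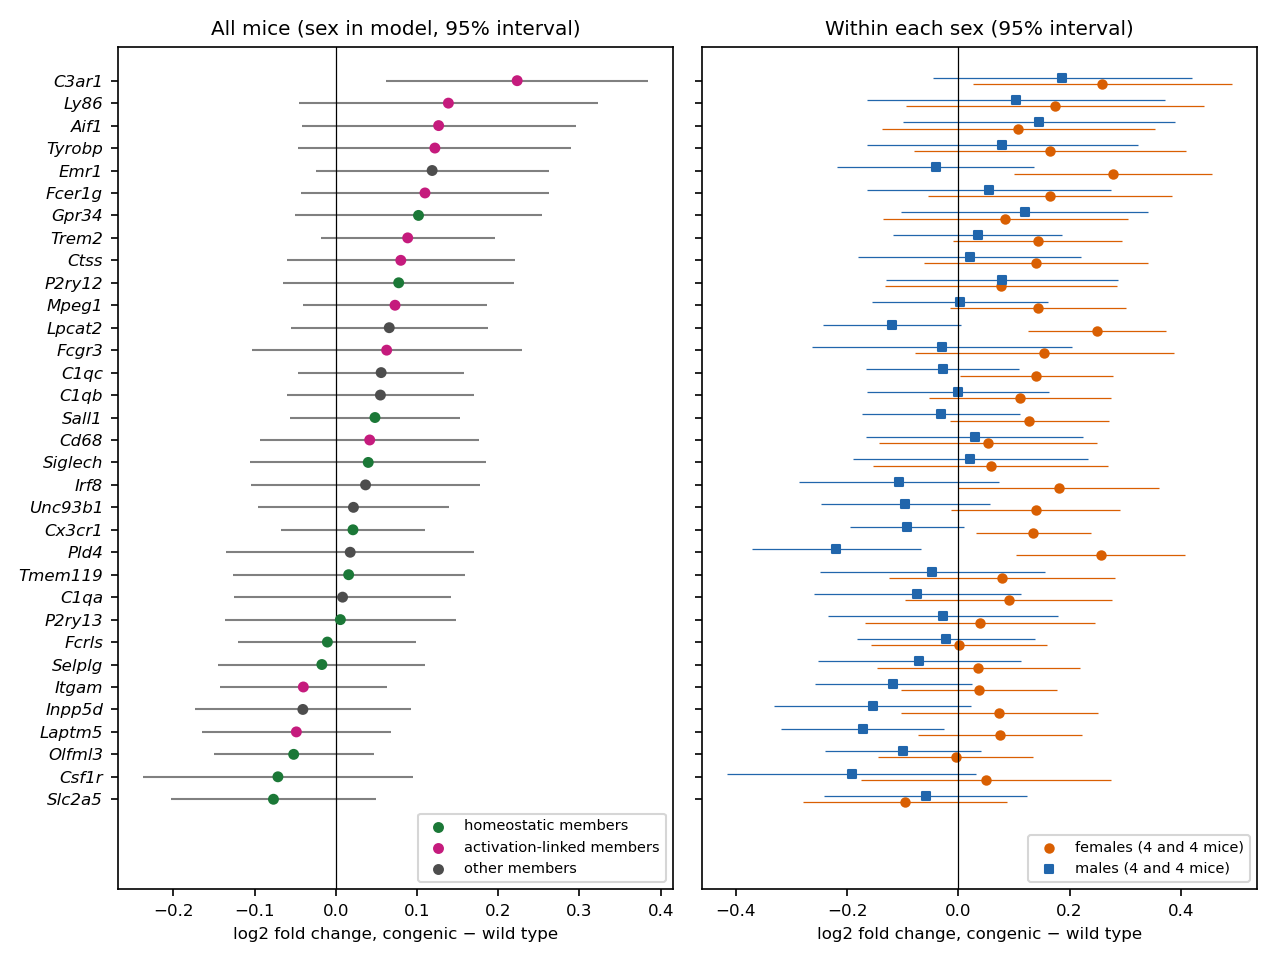
Log2 fold change, congenic minus wild type, of each microglia gene with its 95% interval, over all 16 mice (left, coloured by group of members) and within each sex (right, circles for females and squares for males). On the left, the interval of C3ar1 alone excludes 0, and on the right the female points lie to the right of the male points for 29 of 33 genes.

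The second comparison set males against females. No member was called by edgeR (0 of 33, against 0.138% of all genes), while 12 of 33 had an unadjusted p under 0.05, against 14.7% of all genes. The log2 fold change, male over female, was positive for 27 of 33 members with a median of 0.09, against 48.0% positive and a median of -0.0049 over all genes. The 26 other genes enriched in microglia did not share this lean: 13 were positive, with a median of -0.0007. Of these 26, 0 were called and 1 had an unadjusted p under 0.05 in edgeR. Males carried the labels Sample_4671 to Sample_4734 and females Sample_4676 to Sample_4806, and the labels do not say what the numbers stand for, and although the numbers interleave in part, most males come before most females, so that sex and the order of the mice cannot be fully told apart. The 6 cortical markers were also lower in males, with 0 called. Their sums had a median of 77.2 CPM in males and 178 CPM in females. The ranges overlapped, at 30.7 to 227 CPM in males and 43.6 to 235 CPM in females. Once the cortical score entered the model, 20 of 33 members were positive, the median was 0.02 and 7 had an unadjusted p under 0.05. The 8 markers of striatal projection neurons were likewise all higher in males, with a median of 0.11, 0 called and 3 at an unadjusted p under 0.05 in edgeR, and their part in the result was not tested.

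Fcrls had the smallest p by sex and was the one member at an unadjusted p under 0.05 with a higher level in females. It lies on chromosome 3 at 87054680 to 87067660, minus strand, on NCBIM37. Fcrls was at 28.2, 33.1 and 36.2 CPM (lowest, median, highest) in the 8 males and 33.9, 38.0 and 41.3 CPM in the 8 females. The ranges met between 33.9 and 36.2 CPM. The Fcrls log2 fold change was -0.21 (SE 0.05, edgeR p = 0.000876, adjusted p = 0.129), and after adding the cortical score it was -0.25 (edgeR adjusted p = 0.138).

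Selplg, on chromosome 5 at 114267807 to 114280510, was at 39.6, 42.1 and 48.7 CPM in males and 29.5, 37.1 and 40.9 CPM in females. Male and female mice of Selplg shared only the stretch from 39.6 to 40.9 CPM. Its log2 fold change was 0.23 (SE 0.06, edgeR p = 0.00123, adjusted p = 0.136). Trem2 was at 17.1, 19.6 and 21.5 CPM in males and 16.0, 16.5 and 20.2 CPM in females, with a log2 fold change of 0.18 (SE 0.05, edgeR p = 0.00195, adjusted p = 0.153). Most females lay below most males in Trem2, with congenic female Sample_4737 at 20.2 CPM among the males.

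Cd68 had 13.8 ± 0.817 CPM in males and 12.01 ± 1.40 CPM in females (SD, n = 8 each), with 0.20 (SE 0.06) as its log2 fold change. C1qc had 51.2 ± 3.81 and 46.1 ± 3.06 CPM, with 0.15 (SE 0.05), and Irf8 11.8 ± 0.840 and 10.3 ± 1.18 CPM, with 0.20 (SE 0.07). Their adjusted p was 0.188, 0.191 and 0.205 in edgeR. The other members at an unadjusted p under 0.05 were C1qa, Tmem119, Csf1r, Slc2a5, Cx3cr1 and Unc93b1, all higher in males by 0.10 to 0.20 on the log2 scale. Fitted log2 fold changes were above 0 for all 12 activation-linked members, some by less than 0.01, and for 7 of 12 homeostatic members, while 2 of 12 activation-linked and 6 of 12 homeostatic members had an unadjusted p under 0.05. With the cortical score as a covariate the values were 0.19 for Selplg, 0.11 for Trem2, 0.20 for Cd68, 0.10 for C1qc and 0.15 for Irf8, with adjusted p from 0.336 to 0.409 in edgeR. DESeq2 called 3 members by sex, Fcrls (adjusted p = 0.0273), Selplg (0.0328) and Trem2 (0.0434). Without congenic male Sample_4671, edgeR called C1qc (adjusted p = 0.0422).

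The third comparison asked whether the genotype difference was the same in both sexes. No member was called (0 of 33, against 0% of all genes), and 7 of 33 had an unadjusted p under 0.05 for the interaction in edgeR, against 4.18% of all genes. The interaction, the genotype difference in males minus that in females, was negative for 29 of 33 members with a median of -0.12 on the log2 scale, against a median of -0.0036 over all genes. In females 31 of 33 members were higher in congenic mice, with a median of 0.11 and 7 members at an unadjusted p under 0.05, against 2.19% of all genes. In males 12 of 33 were higher, with a median of -0.03 and 2 members at that level, against 2.94% of all genes. The 4 wild-type females were all among the mice with high cortical sums. With the cortical score as a covariate the median interaction was -0.10 and again 7 members had an unadjusted p under 0.05. The 8 markers of striatal projection neurons had a median interaction of -0.09, negative for 7 of 8. Markers of oligodendrocytes, the myelin-forming cells, had -0.32, negative for 6 of 6 with 2 at an unadjusted p under 0.05, and those of endothelial cells -0.21, negative for 5 of 5 with 2 at that level. Their part in the result was not tested. Groups of 4 and 4 did not overlap in 4 of 33 members in females, against 1.25% of all genes, and in 4 of 33 in males, against 2.12%. They did so in both sexes with opposite order in 2 members, against 0.0479% of all genes.

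Pld4, whose product limits the sensing of nucleic acids, had the smallest interaction p of all 16716 genes. It lies on chromosome 12 at 113998866 to 114007197, plus strand, on NCBIM37, and its start carries the joined motif printed above. In females Pld4 was at 9.44, 11.1, 10.2 and 9.31 CPM in the congenic group and 8.24, 8.67, 8.35 and 8.23 CPM in the wild-type group. In males it was at 9.03, 8.86, 10.1 and 9.18 CPM in the congenic group and 11.7, 10.6, 10.4 and 10.5 CPM in the wild-type group. The groups did not overlap in either sex, and their order was opposite. The genotype difference was 0.26 (SE 0.07) in females and -0.22 (SE 0.07) in males, an interaction of -0.48 (SE 0.10, edgeR p = 0.00018, adjusted p = 0.967).

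Lpcat2, the acyltransferase, was next. It lies on chromosome 8 at 95379249 to 95443178, where 1 annotated gene overlaps it on each strand, so that its count is less certain. Lpcat2 was at 16.9, 16.4, 16.7 and 16.3 CPM in congenic females and 13.8, 13.5, 14.5 and 14.02 CPM in wild-type females. In males it was at 12.6, 15.1, 14.6 and 14.8 CPM in the congenic group and 15.8, 15.7, 15.2 and 15.3 CPM in the wild-type group. Again the groups did not overlap in either sex and were in opposite order, and the male ranges were close. The interaction of Lpcat2 was -0.37 (SE 0.08, edgeR p = 0.000306, adjusted p = 0.967).

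Cx3cr1 was at 65.7, 69.0, 69.4 and 60.9 CPM in congenic females and 62.7, 61.1, 57.5 and 59.9 CPM in wild-type females, and these ranges overlapped. In males Cx3cr1 was at 65.8, 64.1, 65.6 and 66.6 CPM in the congenic group and 71.9, 70.2, 70.6 and 66.9 CPM in the wild-type group, with no overlap. Its interaction was -0.23 (SE 0.07, edgeR p = 0.00391). Emr1 had -0.32 (SE 0.12, edgeR p = 0.0155), from 0.28 (SE 0.09) in females and -0.04 (SE 0.08) in males. Both had an adjusted p of 0.967 in edgeR. Fits with the cortical score gave interactions of -0.47 for Pld4, -0.36 for Lpcat2, -0.22 for Cx3cr1 and -0.31 for Emr1. The other members at an unadjusted p under 0.05 were Irf8 with -0.29 (SE 0.12), Laptm5 with -0.25 (SE 0.10) and Unc93b1 with -0.23 (SE 0.10). Of the 9 other members, 5 were thus at that level, against 1 of 12 homeostatic and 1 of 12 activation-linked members. The smallest adjusted p for an interaction among the members was 0.156 in DESeq2, for Pld4 and Lpcat2, and 0.107 in edgeR, for Pld4, without congenic female Sample_4804.

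**Figure D4:**
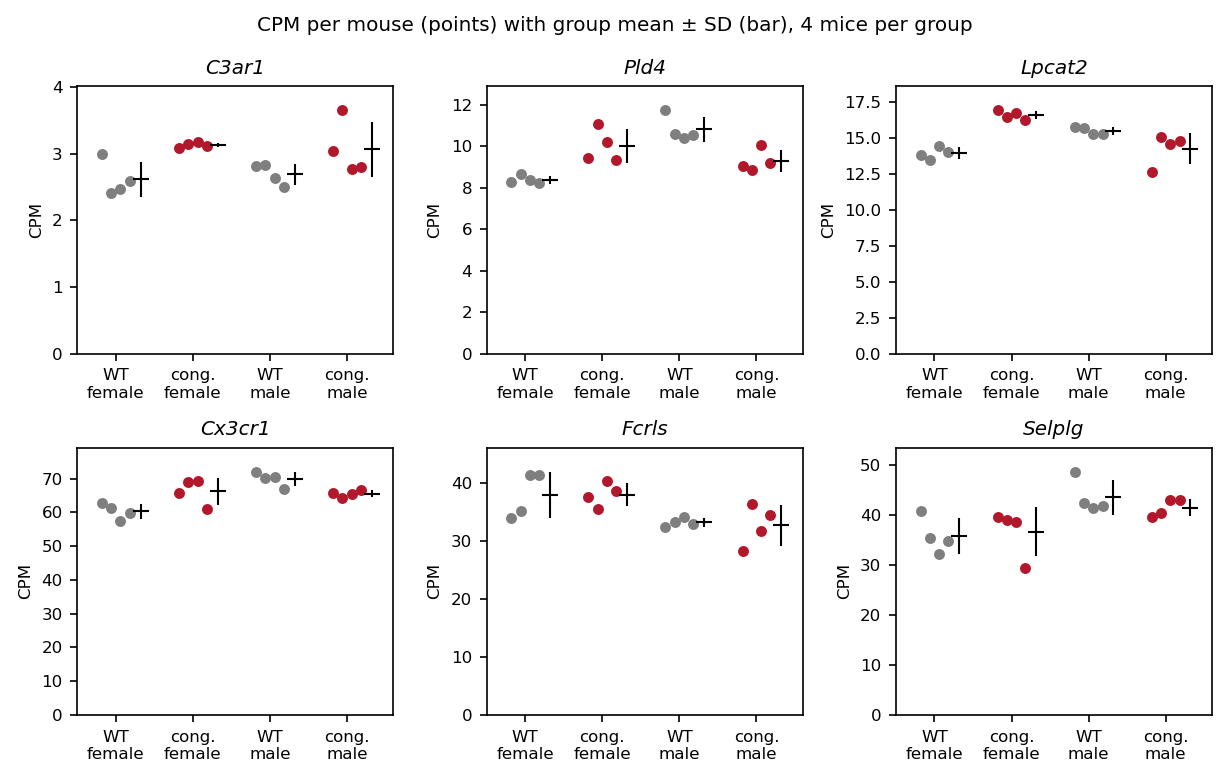
CPM of 6 microglia genes in each mouse (points) with the mean ± SD of each group of 4 mice (bar), by genotype and sex. Pld4 and Lpcat2 show congenic females above wild-type females and congenic males below wild-type males, C3ar1 is higher in most congenic mice, and Fcrls and Selplg differ between the sexes in opposite directions.

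Because the series names splicing in its title, the exon bins of the members were compared too. A bin is a stretch of exon covered by the same set of transcripts, and diffSpliceDGE of edgeR compares a bin with all bins of its gene. Of the 33 members, 32 could be tested, and 0 were called (against 0.00672% of 14875 genes). No member had an unadjusted Simes p under 0.05, against 0.491% of all genes. Of their 361 bins, 4 had an unadjusted p under 0.05, which is 1.11% against 1.03% of all bins. C1qc had the smallest gene-level p (Simes p = 0.0722, adjusted p = 1 in edgeR). In congenic mice its bin at 136447566 to 136448293 on chromosome 4 held 0.411 ± 0.123% of the C1qc counts, and in wild-type mice 0.263 ± 0.0740% (SD, n = 8 each), from only 8 to 24 counts per mouse. The bin of Trem2 at 48491599 to 48493472 on chromosome 17 held 1.52 ± 0.387% in congenic and 1.98 ± 0.407% in wild-type mice. Irf8 and P2ry13 had the next Simes p, 0.432 and 0.483. The bin of Irf8 at 123279105 to 123279481 on chromosome 8 held 6.95 ± 1.58% of its counts in the congenic group and 5.68 ± 0.810% in the wild-type group. The bin of P2ry13 at 59014744 to 59014804 on chromosome 3 held 4.37 ± 0.369% and 4.88 ± 0.640% of its counts.

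Genes that act around the members showed no call either. Of 18 signalling partners, 0 were called by genotype in edgeR and 5 were positive, with a median of -0.03. These include the ligands of the homeostatic receptors: Cx3cl1, the fractalkine that binds Cx3cr1, at 805 CPM, and Il34 and Csf1, which bind Csf1r, at 54.2 and 15.6 CPM. Of 14 complement genes tested of 15 listed, 0 were called and 6 were positive, with a median of -0.02. C3, from which the ligand of C3ar1 is cut, had a mean of 0.659 ± 0.175 CPM in the congenic and 0.868 ± 0.473 CPM in the wild-type group (SD, n = 8), which is -0.41 (SE 0.26) on the log2 scale.

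Further activation genes, most of them markers of microglia in disease, were called in 0 of 23 tested of 27 listed, with 14 positive and a median of 0.02. Their levels spanned a wide range. Of the genes linked to the disease-associated state, Itgax was at 0.224, Clec7a at 0.417, Cst7 at 0.0841 and Spp1 at 4.11 CPM, while Lpl at 68.1, Axl at 52.6 and Cd9 at 47.8 CPM, which other brain cells also express, were higher. The cytokines Il1b and Tnf were at 0.0614 and 0.0385 CPM. Apoe, a lipid carrier that astrocytes also make, was at 1724 CPM. Of 26 other genes enriched in microglia, 0 were called and 17 were positive, with a median of 0.04. Blnk, an adaptor of immune receptor signals, had the smallest p among them, 0.0300 in edgeR's quasi-likelihood test, for a log2 fold change of -0.22 (SE 0.09). It had 2.81 ± 0.411 CPM in congenic against 3.26 ± 0.362 CPM in wild-type animals. Of 12 interferon response genes, 0 were called and 6 were positive, with a median of -0.01.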

How the data were processed

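The authors deposited raw read counts per gene and per exon bin, as whole numbers with a column for each lane. Tools in the submitters' processing notes are limma 3.22.7, edgeR 3.8.6, HTSeq 0.6.1p1 and FastQC 0.10.1, with the builds mm9 and mm10. The aligner was not given in the sources used here. Different labels name different read layouts, and 62% of gene-table cells of 1 to 10 counts are even, so a count may be a read or a mate. Deposited bins matched bins rebuilt from GENCODE on NCBIM37 for 97.6% of 16655 genes, and coordinates follow that build. No source used here gives the annotation behind the gene table, so levels per kb are approximate.

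The 3 lanes of a mouse were summed (dispersion index between lanes 1.89 to 1.94, where counting error of single reads gives 1). In R 4.3.3, edgeR 4.0.16 filtered genes (minimum count 10, total 15), scaled them by TMM and fitted robust quasi-likelihood models over all genes, with two-sided tests and Benjamini-Hochberg adjustment. Log2 CPM used a prior count of 2. DESeq2 1.42.0 and limma 3.58.1 were alternatives. Tested on simulated genotype counts, the fit called 37.3% of genes changed by 0.25, 83.6% by 0.5 and 93.8% by 1 on the log2 scale (16618 genes).

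Members named in full were those of smallest p in each comparison (6, 6 and 4), the 4 highest and the 4 lowest per annotated kb, C1q, Trem2 and Tyrobp, with at most 4 genes of each other list and the 15 most similar genes. Genes named beyond that rule, and the exon length in use, were chosen after the values were seen. The members, lists, pairs and motifs were chosen with earlier results of these data known.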

Additional observations from a re-analysis of the deposited data

Results flagged for a closer look

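In each member, and in the sum of the members, the 8 mice of a genotype were checked for a mouse whose distance to the next one was a large part of the range of its group. Chance flags about 1 in 20 groups, and 3 of the 68 groups checked were flagged. Selplg was at 29.5 CPM in congenic female Sample_4804, and the next congenic mouse was at 38.6 CPM. Aif1 was at 5.42 CPM in wild-type female Sample_4676, with the next wild-type mouse at 6.36 CPM. C3ar1 was at 3.65 CPM in congenic male Sample_4673, with the next congenic mouse at 3.17 CPM, and without that mouse its genotype log2 fold change was 0.18 (edgeR p = 0.0254, adjusted p = 1).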

How the results depend on the processing

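No call by genotype, by interaction or for exon usage appeared among the members in any alternative, and by sex DESeq2 called 3 and the fits without 1 mouse 0 to 1. The median genotype difference of the members was 0.01 to 0.06 without 1 mouse, 0.11 in females alone, -0.03 in males alone and -0.02 with the cortical score. Of the 12 pairs, 10 passed by r and 5 by rho with all mice, 5 and 2 without the 2 farthest mice, 7 and 4 on residuals of the genotype-by-sex means, and 6 by either with residuals of the cortical score (chosen after seeing the data), where P2ry12 with Tmem119 had r = -0.17. No paired analysis was possible because the labels give the genotypes no shared replicate numbers.

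The sign of the genotype log2 fold change turned in at least 1 setting for 23 of 33 members, none of them called in any setting. With the cortical score as a covariate the turned values were Cx3cr1 -0.0082, P2ry12 -0.0204, P2ry13 -0.1138, Tmem119 -0.0601, Siglech -0.0633, Sall1 -0.0055, Ctss -0.0259, Fcgr3 -0.046, Mpeg1 -0.0149, C1qa -0.0447, Pld4 -0.0154, Irf8 -0.0184 and Unc93b1 -0.023. In males alone they were Cx3cr1 -0.0943, P2ry13 -0.0293, Tmem119 -0.0481, Sall1 -0.0326, Fcgr3 -0.0312, C1qa -0.0753, C1qb -0.0027, C1qc -0.0298, Emr1 -0.0425, Pld4 -0.2207, Lpcat2 -0.1208, Irf8 -0.1074 and Unc93b1 -0.0969. In females alone they were Csf1r 0.0493, Fcrls 0.0013, Selplg 0.0354, Itgam 0.0366, Laptm5 0.0749 and Inpp5d 0.0731. From lane 3 alone they were P2ry13 -0.0022, Fcrls 0.0205, Pld4 -0.1041 and Inpp5d 0.0142, from lane 4 alone Tmem119 -0.0022 and Unc93b1 -0.0052, and from lane 5 alone Tmem119 -0.0023, Selplg 0.0146, Sall1 -0.0013, C1qa -0.0241 and Irf8 -0.0017. Without mice Sample_4673 and Sample_4806 they were P2ry13 -0.0079 and C1qa -0.0164. The ranges over the fits without 1 mouse that included a turn were C1qa -0.0162 to 0.0445, Fcrls -0.0346 to 0.0202, Irf8 -0.0015 to 0.0662, P2ry13 -0.028 to 0.0491, Pld4 -0.0223 to 0.0545, Selplg -0.0401 to 0.024, Siglech -0.0081 to 0.0717, Tmem119 -0.0183 to 0.0584 and Unc93b1 -0.0056 to 0.0477. The cause was not tested. Depth limits C3ar1 most, with 176 to 269 counts per mouse. Of simulated genotype differences of 0.25, about the largest by genotype over all mice, 37.3% were called. The simulation drew genes of any level, with many changed genes among them, and did not cover the interactions.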

Other observations

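The interferon response genes, a programme that microglia share with other cells, had a wide spread between males. As the centred mean log2 CPM of 12 genes, congenic male Sample_4673 stood at 0.69 and wild-type male Sample_4672 at 0.38, while congenic male Sample_4671 stood at -0.40. The 8 females lay between -0.09 and 0.13. Cxcl10, with 0 to 148 counts per mouse and a median of 8, is near the floor. Without it, a choice made after its values were seen, the 3 males stood at 0.41, 0.26 and -0.21 and the females between -0.03 and 0.17. The genotypes overlapped with and without it.

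Some partners of the members ran along with the mean profile of the 33 members over the 16 mice and some against it. Itgb5, an integrin chain found in microglia, had r = 0.75 and Nckap1l, a regulator of the immune cell cytoskeleton, 0.74. Cd200, which neurons use to quiet microglia, had r = -0.83 and Mef2c, a factor of neurons and microglia, -0.69. Of complement, C1ra and C1s, the proteases that pair with C1q, had -0.73 and -0.60. These correlations are descriptions over shared libraries, picked after their values were seen.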
